A study of Mus musculus with 4 samples.

Results

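A set of 10 genes of the hypoxia-inducible factor (HIF) pathway was examined in 4T1 cells sorted for high or low mitochondrial membrane potential (MMP). They were chosen by name, with earlier results of these data known. The set holds the 2 oxygen-regulated HIF subunits (*Hif1a*, *Epas1*) and 2 of the oxygen sensors that mark these subunits for destruction (*Egln1*, *Egln3*). It also holds 6 HIF targets outside glycolysis (*Car9*, *Vegfa*, *Ndrg1*, *Ankrd37*, *Adm*, *P4ha1*). All 10 were found among the 20197 genes of the deposited table. The 4T1 line derives from a mammary tumor of the mouse, forms lung metastases and is used to model triple negative breast cancer. The cells, of WT genotype and grown in DMEM with 10% serum, were stained with 20 nM MitoSpy Red, a dye that accumulates in mitochondria according to their membrane potential, and the 5% brightest (high MMP) and 5% dimmest (low MMP) cells were collected, with 100000 cells per sample and 2 samples per group. Both groups thus carry the dye, went through the sorter and come from 1 cell line, and the oxygen level during culture is not given in the sources used here. The samples of a group are counted as independent experiments in the study, and the labels do not say which high and low MMP samples came from the same experiment.

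HIF is a pair of proteins: an alpha subunit (HIF1A, or EPAS1, also called HIF2A) and the constant partner ARNT. In the presence of oxygen, prolyl hydroxylases (the EGLN family) modify the alpha subunit, the VHL ubiquitin ligase then binds it and it is degraded, so that HIF activity is set mainly at the level of the protein and not of the *Hif1a* transcript. When oxygen is low, the dimer binds short DNA elements with the core ACGTG or GCGTG and induces genes for glycolysis, blood vessel growth, pH balance and matrix synthesis. *Egln3*, and to a lesser degree *Egln1*, are themselves HIF targets and close a feedback loop. Mitochondria are a main consumer of the oxygen within a cell, and the study asked how gene expression differs with mitochondrial activity.

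Promoter sequences were available from RefSeq (GRCm38.p6) for 8 of the 10 genes, in 9 windows that run from 250 bases before to 50 bases after an annotated start. Shown is 1 stretch with a HIF core for each of 6 genes that were lower in both high MMP samples and have a window. The windows of *Ankrd37*, *P4ha1*, *Egln1* and *Adm* held further cores that are not printed. The stretches show where such elements lie. Each reads 5′ to 3′ on the strand of the gene, and capitals mark the core, written as CACGT or CACGC where it lies on the opposite strand. No stretch runs past the RefSeq start.
Car9 (chr4:43506996-43507024, plus strand, 18 bases before the start): ctatttccgatgCACGTacagcccgtcca
P4ha1 (chr10:59323268-59323295, plus strand, 16 bases before the start): tgtgacagagcgCACGTagcgagggctg
Ankrd37 (chr8:45999851-45999868, minus strand, 6 bases before the start): cagtgtttgggtACGTGa
Egln1 (chr8:124949306-124949334, minus strand, 68 bases before the start): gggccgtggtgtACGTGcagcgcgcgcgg
Egln3 (chr12:54204087-54204115, minus strand, 229 bases before the start): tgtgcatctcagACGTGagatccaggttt
Adm (chr7:110627591-110627619, plus strand, 54 bases before the start): ggcaaatctgacCACGCccaccgtccgcc
Counting both strands over the whole 300 bases, ACGTG was present in 7 of the 9 windows, against 19.6% of all 32851 promoter windows, and GCGTG in 5 of 9, against 32.4%. In an E-box the same core is read on both strands at once, as in the *Hif1a* window. These matches are letters in a window, and several of the genes are known HIF targets, so the shares are a description only. The window at the first *Vegfa* start held neither core, while the window at another *Vegfa* start held 1 ACGTG and 1 GCGTG. The *Hif1a* window held 3 ACGTG.

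Depth was 22591970 to 26395015 reads per library. Levels are normalized reads on the scale of the authors, who brought every library to a total of 20000000. A difference is the high MMP mean minus the low MMP mean of log2(value + 1), with its standard error (SE) from the limma fit over all genes. On this scale the difference of genes with low values, such as *Ankrd37*, *Adm* and *Epas1*, is understated. No gene in the table passed an adjusted p of 0.05 in limma (0%, of 20197), whereas 1213 (6.01%) were lower and 798 (3.95%) higher in high MMP cells at an unadjusted p under 0.05. After quantile normalization this split was 1076 lower and 1108 higher, and with median-of-ratios rescaling 1041 and 956. On reads recovered from the values, edgeR's quasi-likelihood test called 0 genes, with 772 lower (3.82%) and 651 higher (3.22%) at an unadjusted p under 0.05, and DESeq2 118 (0.584%), none of them among the 10. The median difference of all genes was -0.04. The tumor cell markers *Krt8*, *Krt18*, *Krt14*, *Epcam* and *Cdh1* were present at 1100 to 19554 normalized reads in each library. Leukocyte markers summed to 6.97 to 14.2 and endothelial markers to 5.02 to 12.9. The markers *Cd3e*, *Adgre1*, *Kdr* and *Lum* were not in the table used here. Of the fibroblast markers *Pdgfra* alone was well measured, at 319 and 363 in high and 536 and 589 in low MMP samples, and its part in the results below was not tested.

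Of the 10 genes, 7 had lower values in both high MMP samples than in either low MMP sample, namely *Egln1*, *Egln3*, *Car9*, *Ndrg1*, *Ankrd37*, *Adm* and *P4ha1*. The same was true of 4940 of all genes (24.5%) and of 23.7% of the 12902 whose mean was 10 or more. This share was 21.0% after median-of-ratios rescaling and 16.9% after quantile normalization, and the count of 7 members was the same under both rescalings. *Hif1a* was higher in both high MMP samples, as were 13.5% of all genes, 14.3% of those 12902, and 16.7% and 16.4% of all genes after the respective rescalings. *Vegfa* and *Epas1* overlapped between the groups. The median difference of the 10 was -0.35, against -0.04 for all genes, and 2 of them, *P4ha1* and *Egln3*, had an unadjusted limma p under 0.05, both lower in high MMP cells. Over all genes 6.01% were lower at this threshold. The count of members was 0 in limma with no trend, where 1198 of all 20197 genes were lower. With 1 library left out, a group held 1 sample. The difference of *P4ha1* then ran from -0.54 to -0.31 and that of *Egln3* from -0.42 to -0.23. None of the 10 passed the adjusted threshold.

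**Figure D1:**
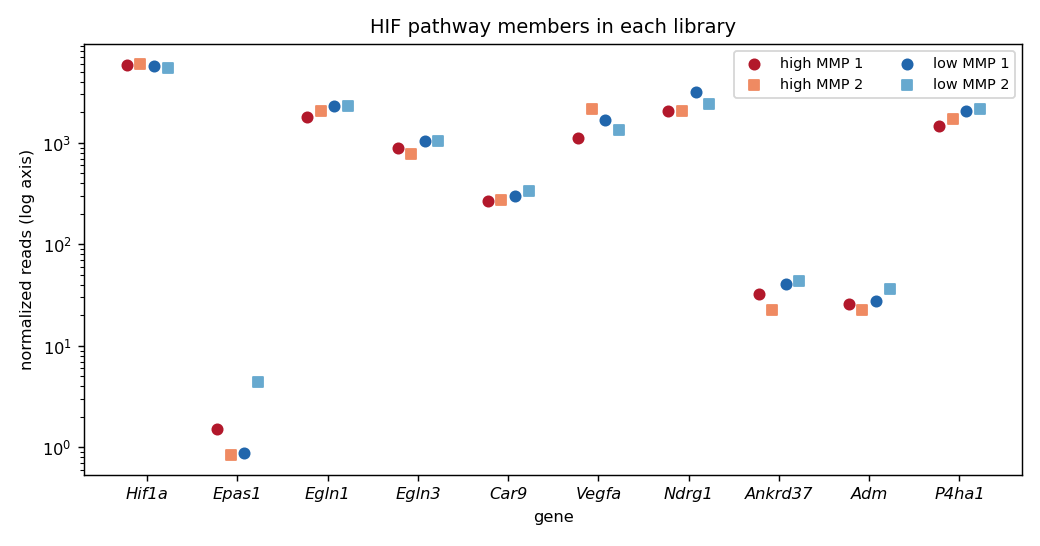
Normalized reads (log axis) of the 10 genes in each of the 4 libraries, with high MMP in red tones and low MMP in blue tones. The 2 high MMP points lie below both low MMP points for 7 genes, *Vegfa* has its highest and its lowest point in the high MMP group, and *Epas1* stays under 5 normalized reads.

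The HIF alpha subunits differed sharply in level. *Hif1a* (ENSMUSG00000021109, GRCm38 chromosome 12, 73901375 to 73947530) had 5844 and 6044 normalized reads in the high MMP samples and 5706 and 5492 in the low MMP samples. The groups did not overlap, but the difference was small, at 0.09 (SE 0.08, 95% interval -0.14 to 0.32; limma, unadjusted p 0.361, adjusted p 0.840). This is a ratio of 1.06 between the group means. An annotated gene on the same strand, *Gm49321*, overlaps *Hif1a* and is not in the table used here, and how shared reads were assigned is not stated.

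*Epas1* (ENSMUSG00000024140, chromosome 17, 86753700 to 86833410) was at the limit of detection. Its read counts were 2 and 1 with high MMP, and 1 and 5 with low MMP. The ratio of high to low MMP was 0.453, with an exact 95% counting interval of 0.0733 to 2.12, so that this depth could not show a difference. Per kilobase of exon, *Hif1a* had 979 normalized reads and *Epas1* 0.342 on average over the 4 libraries, and in these cells nearly all alpha subunit transcripts were thus *Hif1a*. The third alpha subunit, *Hif3a*, had 1 to 3 reads per library.

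The partner of these subunits was well measured. *Arnt* had 1099 and 1121 normalized reads in high and 1240 and 1092 in low MMP samples, and the difference was -0.07 (SE 0.10, limma, adjusted p 0.906). *Arnt2*, a related partner, was at 0 to 2 reads per library.

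The oxygen sensors had lower values in high MMP cells. *Egln1* (ENSMUSG00000031987, chromosome 8, 124908587 to 124949324), the main HIF prolyl hydroxylase, had 1812 and 2080 normalized reads in the high MMP samples and 2311 and 2323 in the low MMP samples. The low MMP samples were nearly equal and both high MMP samples lay below them. The difference was -0.26 (SE 0.10, 95% interval -0.52 to 0.01), with an unadjusted limma p of 0.0580 and an adjusted p of 0.526.

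*Egln3* (ENSMUSG00000035105, chromosome 12, 54178981 to 54203860), the strongly hypoxia-inducible member of the family, had 895 and 781 normalized reads in high and 1039 and 1054 in low MMP samples. Again the low MMP samples were close together and above both high MMP samples. The difference was -0.32 (SE 0.10, 95% interval -0.59 to -0.05), a ratio of 0.800 between the group means, with an unadjusted limma p of 0.0288 and an adjusted p of 0.472.

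Among the other genes of oxygen sensing, *Egln2* and *Vhl* had the same order of samples. *Egln2*, the third prolyl hydroxylase, had 596 and 585 normalized reads in high and 694 and 704 in low MMP samples, a difference of -0.24 (SE 0.08). *Vhl*, which recognizes hydroxylated HIF, had 324 and 327 against 423 and 387, a difference of -0.31 (SE 0.10). Both had an unadjusted limma p under 0.05 (0.0323 and 0.0304) and an adjusted p of 0.472. The partners of VHL in the ubiquitin ligase, *Elob*, *Eloc*, *Cul2* and *Rbx1*, differed by 0.00 to 0.13 in absolute size. *Hif1an*, which blocks the transactivation domain of HIF, differed by -0.02 (SE 0.08), and the coactivators *Ep300* and *Crebbp* by -0.18 (SE 0.15) and 0.16 (SE 0.14). *Cited2*, which competes with HIF for these coactivators, differed by 0.17 (SE 0.21). In the whole list of HIF subunits and oxygen sensing genes without the members, 2 of 13 had an unadjusted p under 0.05, both lower in high MMP cells, 0 passed the adjusted threshold and the median difference was 0.00.

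Of the targets, *P4ha1* and *Ndrg1* were well measured and had differences of similar size. *P4ha1* (ENSMUSG00000019916, chromosome 10, 59323296 to 59373304) encodes the catalytic subunit of collagen prolyl 4-hydroxylase, which stabilizes the collagen triple helix. It had 1456 and 1705 normalized reads in the high MMP samples and 2063 and 2165 in the low. All high MMP values were under all low MMP values, and the difference was -0.42 (SE 0.11, 95% interval -0.72 to -0.13), a ratio of 0.747. Its unadjusted limma p, 0.0158, was the smallest of the 10 genes, with an adjusted p of 0.472 (edgeR: unadjusted p 0.0201, adjusted p 0.689).

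*Ndrg1* (ENSMUSG00000005125, chromosome 15, 66929318 to 66969640), a stress-responsive gene linked to differentiation, had 2061 and 2063 normalized reads in the high MMP samples and 3191 and 2396 in the low. The high MMP samples were almost equal, while the low MMP samples were 0.41 apart on the log2 scale, about as far as the groups. The difference was -0.42 (SE 0.16, 95% interval -0.86 to 0.01), with an unadjusted limma p of 0.0538 and an adjusted p of 0.513. Without low MMP replicate 1 it was -0.22, and without low MMP replicate 2 it was -0.63.

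*Car9* (ENSMUSG00000028463, chromosome 4, 43506966 to 43513729) encodes a carbonic anhydrase on the cell surface that helps to keep the pH of tumor cells and is often used as a hypoxia marker. It had 269.7 and 274 normalized reads in high and 299.9 and 338 in low MMP samples, on 328 to 382 reads per library. The groups did not overlap, but the difference of -0.23 (SE 0.11, 95% interval -0.53 to 0.07) was not beyond the spread by the test (limma, unadjusted p 0.105, adjusted p 0.628). The antisense gene *Gm12454* overlaps it at a mean of 18.4 normalized reads, and whether the counting used strand is not stated.

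*Ankrd37* and *Adm* were low. *Ankrd37* (ENSMUSG00000050914, chromosome 8, 45996902 to 46005707), an ankyrin repeat gene known as a direct HIF target, rested on 43 and 27 reads with high MMP and on 47 and 49 with low MMP, or 32.6 and 22.6 against 41.0 and 43.4 normalized reads. Its difference was -0.62 (SE 0.27), but the interval ran from -1.36 to 0.13 and the adjusted limma p was 0.587. It overlaps *Ufsp2*, on the opposite strand and at a mean of 702 normalized reads, so without strand-aware counting single reads there could belong to either gene.

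*Adm* (ENSMUSG00000030790, chromosome 7, 110627661 to 110629820), the vasodilating peptide adrenomedullin, rested on 34 and 27 reads with high MMP and on 32 and 41 with low MMP, or 25.8 and 22.6 against 27.9 and 36.3 normalized reads. The groups separated narrowly after scaling by library total, and not in the reads themselves. The difference was -0.39 (SE 0.26, 95% interval -1.10 to 0.33; limma, adjusted p 0.748).

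**Figure D2:**
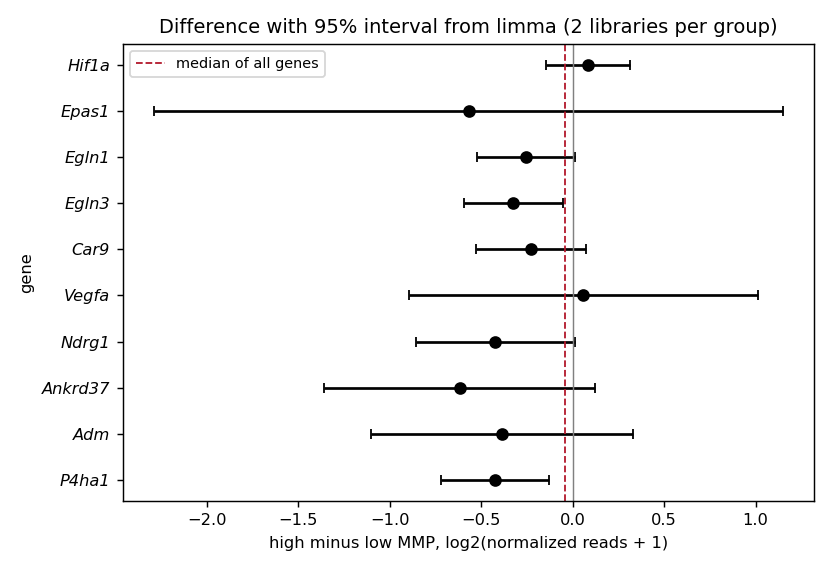
High minus low MMP difference of each gene on the log2(normalized reads + 1) scale, with points for the limma estimate and bars for its 95% interval, and a dashed line at the median of all genes (-0.04). The intervals of *Egln3* and *P4ha1* lie below 0, those of the other 8 genes include it, and *Epas1* and *Vegfa* have wide intervals.

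*Vegfa* (ENSMUSG00000023951, chromosome 17, 46016993 to 46032369), the main growth factor for blood vessels, varied more within the groups than between them. It had 1127 and 2162 normalized reads in the high MMP samples and 1684 and 1333 in the low MMP samples. High MMP replicate 1 was the lowest and high MMP replicate 2 the highest of the 4, and they were 0.94 apart on the log2 scale. The difference between the groups was 0.06 (SE 0.35), with an interval of -0.89 to 1.01 that leaves room for a change of either sign (limma, unadjusted p 0.873, adjusted p 0.994). It was -0.41 without high MMP replicate 2 and 0.53 without high MMP replicate 1. Without low MMP replicate 2 it was -0.11, and 0.23 without low MMP replicate 1.

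The immediate-early genes *Fos*, *Fosb* and *Atf3*, induced within minutes by stress and handling and chosen here after their values were seen, also split the libraries across the groups, in the opposite order. *Fosb* had 4855 normalized reads in high MMP replicate 1 and 5063 in low MMP replicate 2, where *Vegfa* was lowest, against 601 in high MMP replicate 2 and 389 in low MMP replicate 1. *Fos* had 2419 and 2357 in the former libraries and 521 and 326 in the latter, and *Atf3* 1934 and 1515 against 490 and 377. The whole list of 12 immediate-early and stress genes summed to 50123 and 37520 in high and 27851 and 44975 in low MMP samples, and *Egr1* (0.52, SE 0.17), *Ddit3* (-0.49, SE 0.50) and *Junb* (0.39, SE 0.21) had its largest differences at a mean of 10 or more. In this list 4 genes (*Egr1*, *Junb*, *Ier2*, *Ier3*) were instead higher in both high MMP samples and 1 was lower, against 13.5% and 24.5% of all genes. The split is also not particular to the genes named here. Deviations from the group means went together in high MMP replicate 1 and low MMP replicate 2 over 12902 genes (correlation 0.421), which are not independent replicates. The part of the stress genes in the *Vegfa* values was not tested.

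**Figure D3:**
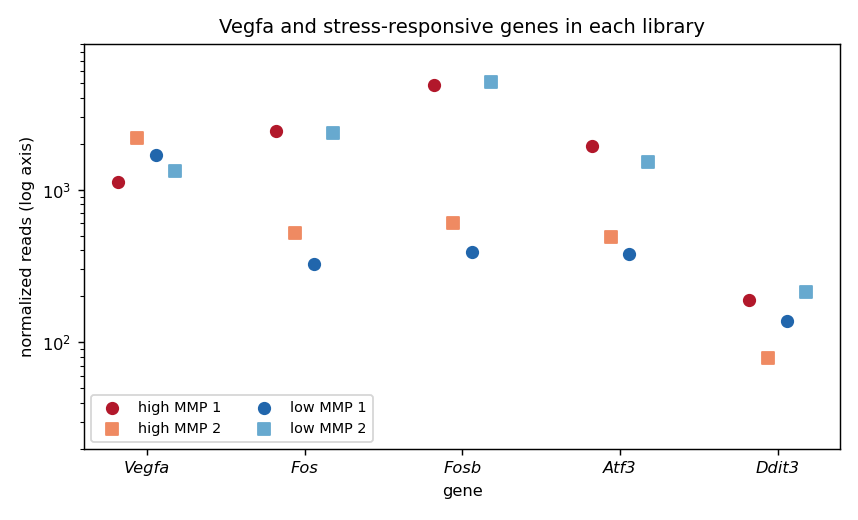
Normalized reads (log axis) of *Vegfa* and of the stress-responsive genes *Fos*, *Fosb*, *Atf3* and *Ddit3* in each library. High MMP replicate 1 and low MMP replicate 2 are the lowest for *Vegfa* and the highest for the other 4 genes.

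The receptors and relatives of these secreted factors showed no common direction. Of the 11 measured angiogenic ligands and receptors other than *Vegfa* and *Adm*, 3 were higher without overlap in high MMP samples (*Pgf*, *Ramp1*, *Vegfc*). A further 3 were lower without overlap (*Vegfb*, *Flt1*, *Ramp2*). Over all genes these shares were 13.5% and 24.5%. The 6 genes were named after their values were seen. *Ramp2* rested on 5 and 4 reads in high and 5 and 9 in low MMP samples, and separated only after scaling. *Ramp1*, a coreceptor in the calcitonin peptide family, had the largest difference in the list where the mean was 10 or more, at 0.76 (SE 0.30), from 10.5 ± 1.36 in low to 18.6 ± 2.63 in high MMP cells (SD, n = 2). It rested on 27 and 20 reads in high and 11 and 13 in low MMP samples. *Calcrl*, the receptor of *Adm*, differed by 0.60 (SE 0.58), on 9 and 24 reads in high and 9 and 8 in low MMP samples. *Pgf*, a placental relative of *Vegfa*, differed by 0.42 (SE 0.20). The list had 1 gene at an unadjusted limma p under 0.05, *Vegfb*, which was lower in high MMP cells, and 0 at the adjusted threshold.

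Per length, the levels fell into 5 tiers. *Hif1a* stood highest, at 932 to 1025 normalized reads per kilobase over the 4 libraries. *Egln1* (504 to 646), *P4ha1* (354 to 526), *Ndrg1* (312 to 484), *Vegfa* (263 to 505) and *Egln3* (293 to 396) followed, and each overlapped its neighbour in this order. *Car9* was separate at 117 to 147. *Ankrd37* (14.7 to 28.2) and *Adm* (14.0 to 22.4) overlapped each other, and *Epas1* was at 0.150 to 0.792. These levels use the union of all annotated exons as the length and shift with the isoforms that are expressed.

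Other non-glycolytic HIF targets were mixed in direction. Of 23 measured genes besides the members, 16 (69.6%) had a difference under 0 and 7 above, with a median of -0.17. Over all genes 58.6% were under 0, and 52.1% and 51.0% after the median-of-ratios and quantile rescalings, under which the count of 16 was the same. The 4 genes with lower values at an unadjusted limma p under 0.05 were *Zfp395*, *P4ha2*, *Tfrc* and *Kdm3a*. *Zfp395*, a zinc finger gene, had 596 and 546 normalized reads in high and 878 and 804 in low MMP samples, a difference of -0.56 (SE 0.10; unadjusted p 0.00388, adjusted p 0.472). *P4ha2*, which makes the other catalytic subunit of collagen prolyl 4-hydroxylase, had 202 and 255 against 324 and 335, a difference of -0.54 (SE 0.15) beside the -0.42 of *P4ha1*. *Angptl4*, a secreted inhibitor of lipoprotein lipase, had the largest difference upward, at 0.75 (SE 0.28) and a mean of 43.0 in high and 25.1 in low MMP cells. In 8 of the 23 both high MMP samples were below both low MMP samples, as in 24.5% of all genes. They were above in *Pdgfb*, *Angptl4* and *Hmox1*, among others, named after their values were seen. None of the 23 passed the adjusted threshold.

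The glycolytic HIF targets, given for comparison, had 13 of 14 differences under 0, with a median of -0.14, against 58.6% of all genes. The count was 12 after median-of-ratios rescaling (52.1% of all genes) and 11 after quantile normalization (51.0%), and 11 in edgeR and in DESeq2, where *Hk2* and *Pgam1*, named after their values were seen, were just above 0. In 3 of the 14 genes both high MMP samples were below both low MMP samples, and in 0 above, against 24.5% and 13.5% of all genes. The list summed to 124030 and 91602 normalized reads in high and 112330 and 125470 in low MMP samples, so the groups overlapped. *Pdk1*, a pyruvate dehydrogenase kinase, had 530 and 395 normalized reads in high and 725 and 819 in low MMP samples. Its difference was -0.75 (SE 0.18, limma, unadjusted p 0.0116, adjusted p 0.472). It was the only gene of this list at an unadjusted p under 0.05. *Slc2a1*, the glucose transporter GLUT1, differed by -0.34 (SE 0.14) and *Pfkl*, the liver form of phosphofructokinase, by -0.33 (SE 0.20).

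**Figure D4:**
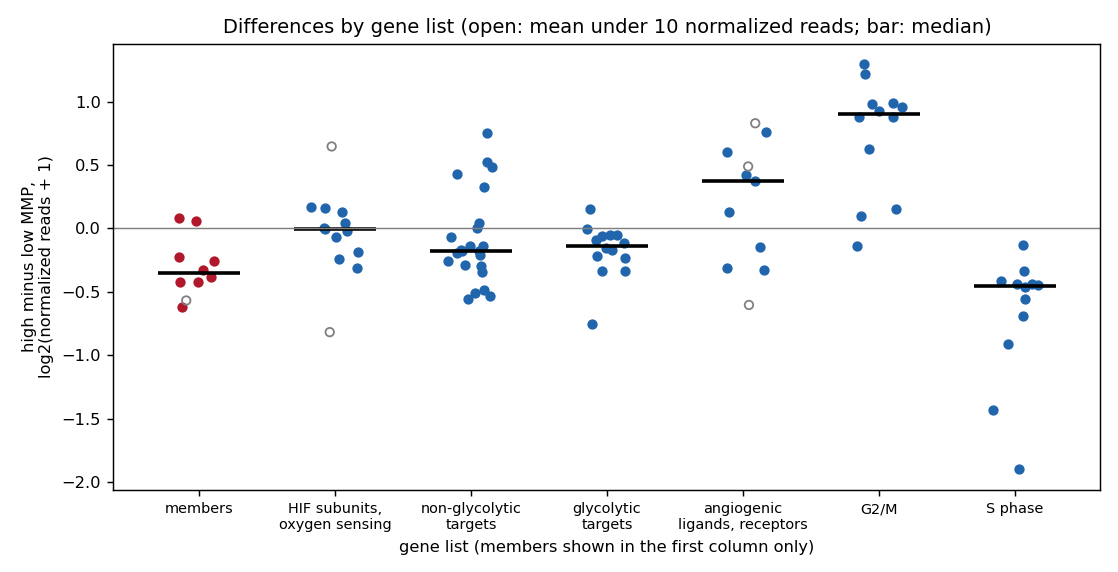
High minus low MMP differences on the log2(normalized reads + 1) scale, with 1 point per gene, bars at the list medians and open points for genes with a mean under 10 normalized reads. The 10 members (left, median -0.35) lie mostly below 0, the other 3 HIF lists scatter around or slightly below 0, the angiogenic list has a median of 0.38, and the G2/M and S-phase lists stand apart in opposite directions.

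Cell cycle genes were apart between the groups. The 12 genes of the G2/M list summed to 83585 and 84393 normalized reads in high and 45385 and 49533 in low MMP samples, led by *Ube2c* at 1.30 (SE 0.09), *Nusap1* at 1.22 (SE 0.08) and *Ccnb1* at 0.99 (SE 0.09). The 12 genes of the S-phase list summed to 41994 and 32407 in high and 52469 and 53472 in low MMP samples, led by *Ung* at -1.90 (SE 0.31), *Cdc6* at -1.43 (SE 0.19) and *Ccne2* at -0.91 (SE 0.10). Both lists were chosen with earlier results of these data known. At an unadjusted limma p under 0.05, 9 of the G2/M genes were higher in high MMP cells, against 3.95% of all genes. At this threshold 7 of the S-phase genes were lower, against 6.01%. In limma and in edgeR 0 of either list passed the adjusted threshold. DESeq2 called 9 of the G2/M and 4 of the S-phase genes at an adjusted p under 0.05, against 0.584% of all genes. The part of this cell cycle difference in the lower values of the 7 members was not tested. In such bulk samples, fewer cells that express a gene and less of its RNA per cell cannot be told apart. The genes used as qPCR references, *Rpl19*, *Rpl22*, *Ywhaz*, *Hprt* and *Polr2m*, differed by -0.08 to 0.04.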

How the data were processed

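RNA of 4 samples of sorted 4T1 cells (2 high and 2 low MMP) had been sequenced from stranded mRNA libraries made with 200 ng of RNA. Reads were aligned by the authors to the mouse transcriptome (GRCm38/mm10) with STAR and counted them per gene. HTSeq is also named in the submitters' processing notes. They scaled each library to its total and left out genes expressed in too few samples. Tool versions, annotation release, strand setting and treatment of multi-mapped reads are not given in the sources used here. The deposited values are therefore a normalized signal per gene. Every value was a whole multiple of 1 step per library, which recovered whole reads for 100.0% of values (within 0.02 of a read) and gave the depth, and counting intervals cover counting error only. There were 0 columns of no sample.

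Symbols and positions came from GENCODE M21 (GRCm38) for 19993 of 20197 identifiers. Of 2 identifiers sharing a symbol the more abundant was used. Log2(value + 1) was tested with limma 3.58.1 (trend) in R 4.3.3, high against low MMP, with Benjamini-Hochberg adjustment over all genes and no block, since same-numbered samples did not deviate together. With 2 against 2 samples an exact permutation test cannot go below 0.333. edgeR 4.0.16 and DESeq2 1.42.0 on recovered reads, other scalings, filters and left-out libraries were alternatives. The scripts were tested on simulated data. The named genes are the members, the HIF subunit and oxygen sensing list, the reference genes and, per list, the 3 other genes with the largest absolute difference at a mean of at least 10. Members and lists were chosen with earlier results of these data known. Some genes of the lists are not reported here by name.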

Additional observations from a re-analysis of the deposited data

How the results depend on the processing

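Between 16 and 17 alternatives were run for each of the 10 genes, covering pseudocounts of 0.5 and 5, minimum means of 1 and 10, both rescalings, limma with no trend, edgeR, DESeq2, the blocks and each library left out. *Hif1a* and the 7 genes that were lower in both high MMP samples kept their direction in all of these. For many of these fits that outcome was fixed. The groups of these genes do not overlap, so neither a pseudocount nor leaving out 1 library could reverse the direction. The minimum means, limma with no trend and the limma blocks leave the difference itself unchanged. With 1 library left out, *Vegfa* ranged from -0.41 to 0.53 and *Epas1* from -1.34 to 0.20. The lone library was assumed to vary like the others in limma. At an unadjusted p under 0.05, 2 of the 10 members were lower in the report, beside 6.01% of all genes. In limma with no trend the number of members was 0, beside 1198 of all 20197 genes. The cause was not tested. Over all genes, DESeq2 called 118 at an adjusted p under 0.05, against 0 in limma.

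Deviations from the group means did not go together in same-numbered samples (correlation -0.421 over 12902 genes with a mean of at least 10, which are not independent replicates), so the numbers were not taken as pairs. With the replicate number as a block, limma had 1 member and 624 of all genes lower at an unadjusted p under 0.05. In that design edgeR called 106 genes in all, among them 8 G2/M and 3 S-phase genes. It called 0 of the members and 1 of the HIF-related lists (*Pdk1*, edgeR adjusted p 0.0317). Crossed numbers as the replicate block were a fit chosen after seeing the data. Limma then had 4 members and 1295 of all genes lower at an unadjusted p under 0.05, and edgeR 5 and 1307. There edgeR called 733 genes, 12 of the HIF-related lists and 2 of the members. Among the members, depth limits *Epas1*, *Adm* and *Ankrd37*, which rest on 1 to 49 reads per library.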
